A study of Mus musculus with 17 samples.

Results

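The 10 genes described here encode the transcription factor p53 (*Trp53*), targets of p53 (*Cdkn1a*, *Mdm2*, *Ccng1*, *Gadd45a*, *Trp53inp1*, *Sesn1*), the related stress gene *Gadd45b* and the *Cdkn2a* and *Cdkn2b* regulators of cellular senescence. They were chosen by gene name with earlier results of these data known, as 10 of the 56748 genes of the deposited count table. All 10 were among the 16195 genes with enough counts to be tested. Gene counts were available for 17 mouse hearts aged 12 to 16 months, 9 from *Polg* hMut mice (hMut) and 8 from controls (Ctrl), with 1 library per heart. The hMut mice carry the genotype *Polg* iMut/iMut; +/*Ckmm*-cre on the C57BL/6N background. In these mice Cre, driven by the muscle creatine kinase promoter, removes a floxed wild-type *Polg* cDNA cassette in cardiac and skeletal muscle cells, which then make a proofreading-deficient form of the mitochondrial DNA polymerase. The other cells of the heart are not targeted. The genotype of the Ctrl mice is not detailed further in the labels. A heart library holds RNA of all its cells, so more cells of a type and more RNA per cell cannot be told apart.

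p53 is held at a low level in unstressed cells by the ubiquitin ligase MDM2, whose own gene p53 activates. When DNA damage or metabolic stress stabilizes p53, it raises transcription of genes that stop the cell cycle, repair DNA, limit growth signalling or start cell death. *Cdkn1a*, which encodes the CDK inhibitor p21, is the classical reporter of that arm, while the products of *Cdkn2a* (p16Ink4a and p19Arf) and *Cdkn2b* (p15Ink4b) hold cells out of the cycle in senescence. p53 protein is controlled largely after translation, so its transcript does not measure its activity.

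p53 binds DNA at a pair of half-sites that follow each other. The sequence of GRCm39 from 3000 bases before to 3000 bases after the annotated start of each gene was searched for 20-base sites of 2 abutting half-sites that depart from the p53 half-site consensus by at most 1 base. The consensus reads alike on both strands, so the search covers both. The core C and G of each half-site had to be intact, and a gene was counted once however many matches it had. The 4 matches near the 10 genes are shown because they set *Cdkn1a*, which rose in hMut hearts, beside *Ccng1*, which did not. *Gadd45a*, which also rose, had no match. Half-sites set apart by other bases were not searched, so a gene without a match may still hold a site. Capitals mark the 20 matched bases, flanked on each side by lower-case bases, and each sequence is read 5′ to 3′ on the strand of its gene.
Cdkn1a: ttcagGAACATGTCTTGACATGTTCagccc
Ccng1, upstream: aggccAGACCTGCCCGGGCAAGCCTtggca
Ccng1, intron: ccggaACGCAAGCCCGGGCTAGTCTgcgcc
Cdkn2b: tacttAGACATGTCCGGTCTTGCTCagcca

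The printed *Cdkn1a* stretch lies at chr17:29309897-29309926 on the plus strand, outside the gene, with its centre at position −39 relative to the annotated start. The upstream *Ccng1* stretch lies at chr11:40646284-40646313 on the minus strand, also outside the gene, with its centre at position −161. The second *Ccng1* stretch lies in an intron at chr11:40645758-40645787, and that of *Cdkn2b* in an intron at chr4:89226632-89226661, both on the minus strand. Each of the 4 departs from the consensus by 1 base. Such a match was found near 3 of the 10 genes and near 179 of the 16195 tested genes (1.11%), and a perfect match was found near 25 tested genes (0.154%) and near none of the 10. Allowing 2 departures gave 3 of the 10 genes against 6.53% of tested genes. A match describes these letters only, and p53 binding was not measured.

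Total counts lay between 34425783 and 46486964 in Ctrl hearts and between 32915159 and 40175122 in hMut hearts. Mitochondrially encoded genes took 23.5 to 30.9% of counts in Ctrl and 15.9 to 23.0% in hMut. All 12 cardiomyocyte markers were at 651 CPM (counts scaled to a common library size with TMM factors) or more in every heart. The atrial markers *Sln* and *Myl7* were at or below 0.271 and 0.514 CPM. The atrial marker *Myl4* lay between 1.14 and 2.34 CPM and *Nppa* between 35.9 and 685 CPM. The hearts hMut 6 and hMut 9 (numbers are those of the labels) stood apart by their cell markers. Their summed fibroblast markers reached 2063 and 1585 CPM, against 902 to 1064 CPM in Ctrl, and their summed myeloid markers reached 1407 and 706 CPM, against 251 to 385 CPM in Ctrl. Their summed cardiomyocyte markers were 50080 and 49100 CPM, against 65930 to 79740 CPM in Ctrl. Their summed atrial markers reached 687 and 425 CPM, against 38.3 to 166 CPM in Ctrl. Nearly all of that sum was *Nppa*, since *Sln*, *Myl7* and *Myl4* were at or below 2.34 CPM in every heart. The targeted gene, *Polg*, was at 57.9 ± 6.08 CPM (SD, n = 9) in hMut and 34.7 ± 7.31 CPM (SD, n = 8) in Ctrl, a log2 fold change of 0.74 (SE 0.10, adjusted p = 0.000448, edgeR quasi-likelihood test). Counts of this gene do not separate transcripts of the cassette from those of the mutant allele. Which of them the Ctrl hearts hold is not known, since the Ctrl genotype is not detailed.

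Of the 10 genes, *Cdkn1a* and *Gadd45a* rose in hMut hearts and none fell. At an unadjusted p under 0.05, edgeR gave 5 of the 10 genes higher and 0 lower, where 14.5% of all tested genes were higher and 11.3% lower by the same rule. DESeq2 and limma-voom each called 3 of the 10 higher and 0 lower, where they called 6.21% and 7.26% of all genes higher. Across all tested genes, 749 (4.62%) passed an adjusted p of 0.05, of which 564 (3.48%) were higher and 185 (1.14%) lower in hMut. The log2 fold change was above 0 for 8 of the 10 genes and below 0 for 2, with a median of 0.20 beside 0.00 (0.0023) over all tested genes. Adjusted p-values are Benjamini-Hochberg values over all 16195 genes. Scaling on 12 cardiomyocyte genes in place of the TMM-scaled library sizes took the median log2 fold change of all tested genes to 0.258 and the share of called genes that were higher from 75.3% to 98.5%. With TMM all 12 of these scaling genes had a log2 fold change below 0 (median −0.237), though none was called by edgeR. Under that scaling 5 of the 10 genes were called higher, with *Cdkn2b*, *Trp53* and *Mdm2* added, as were 36.1% of all tested genes.

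**Figure D1:**
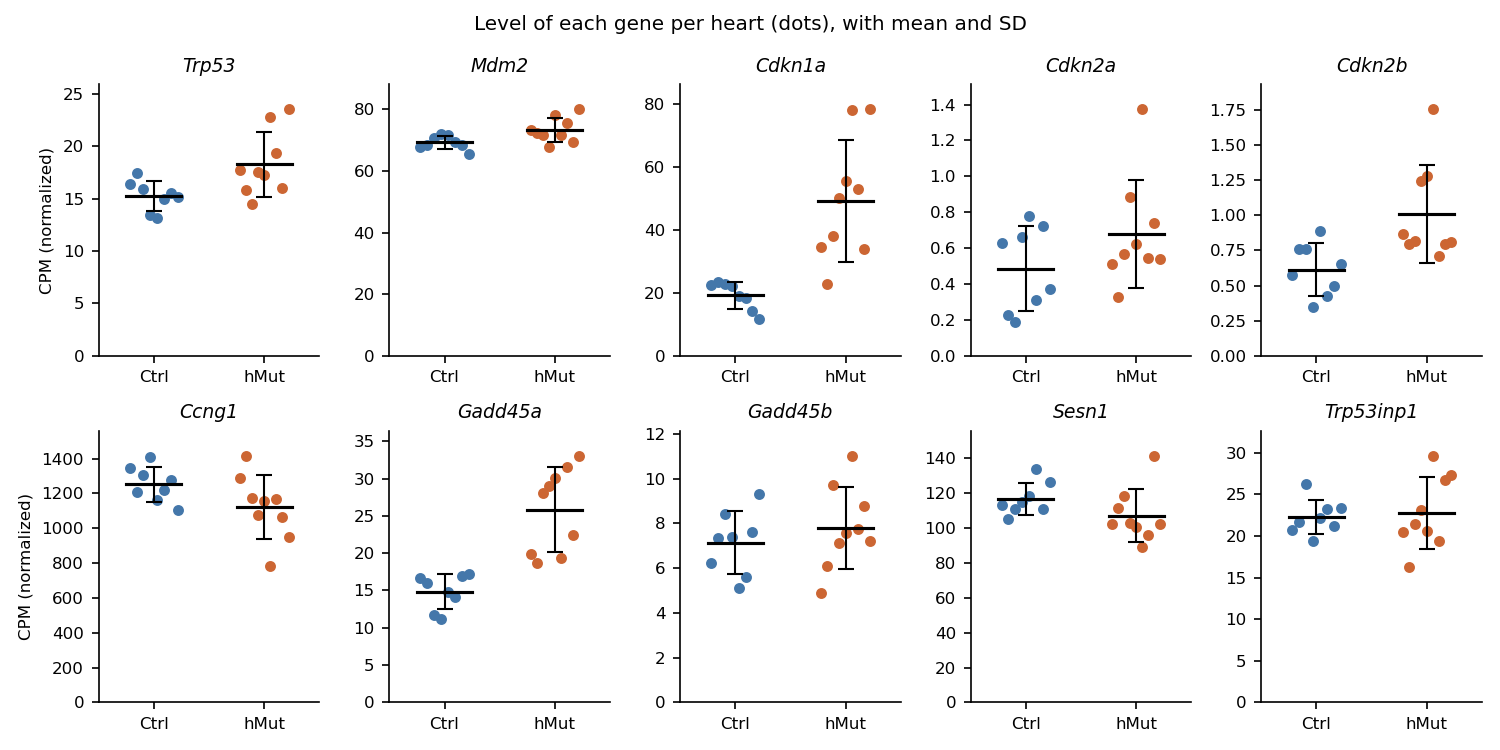
Level of each of the 10 genes in CPM (y axis, starting at 0) in the 8 Ctrl hearts (blue) and the 9 hMut hearts (orange), 1 dot per heart, with the mean and SD as black lines. *Gadd45a* separates the groups with no overlap, *Cdkn1a* separates all but 1 hMut heart, and the other 8 genes overlap between the groups.

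*Cdkn1a* (ENSMUSG00000023067, chr17:29309950-29319701, plus strand) encodes p21, which inhibits cyclin-dependent kinases and halts the cycle before DNA replication. It lay between 11.6 and 23.4 CPM in Ctrl hearts, with a median of 20.5, and between 22.7 and 78.3 CPM in hMut hearts, with a median of 50.1. In 8 of 9 hMut hearts it was above every Ctrl heart, and the exception, hMut 2 at 22.7 CPM, was level with the highest controls. The means were 49.3 ± 19.4 CPM (SD, n = 9) and 19.3 ± 4.32 CPM (SD, n = 8), a 2.56-fold difference and a log2 fold change of 1.36 (SE 0.22, 95% interval 0.89 to 1.82, adjusted p = 0.00147, edgeR).

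The hMut hearts also differed among themselves in *Cdkn1a*, with a coefficient of variation of 39.3% against 22.4% in Ctrl. The 2 highest values, 77.9 CPM in hMut 6 and 78.3 CPM in hMut 9, came from the hearts with the highest myeloid and fibroblast marker sums and the lowest cardiomyocyte sums. Without these 2 hearts the log2 fold change of *Cdkn1a* was 1.09 (adjusted p = 0.00176, edgeR). The lowest hMut values after hMut 2 were 33.8 CPM in hMut 8 and 34.6 CPM in hMut 1, both still above the highest control at 23.4 CPM. Among 8648 genes with a mean of at least 10 CPM, the 5 whose variation around the group means was most like that of *Cdkn1a* over the 17 hearts were *Gdf15* (Pearson's r = 0.924), *Capza1* (0.922), *Fbn1* (0.921), *Pmepa1* (0.919) and *Loxl1* (0.917). In *Cdkn1a* and in each of these 5 genes the 2 highest values were those of hMut 6 and hMut 9. Each of these genes was also lower in Ctrl 8 than in Ctrl 1. From Ctrl 1 to Ctrl 8, in label order, *Cdkn1a* was at 22.6, 23.4, 22.7, 22.2, 18.9, 18.5, 14.4 and 11.6 CPM. What this order reflects was not tested. The correlations were not computed with hearts left out. Genes counted in the same library share its cell makeup and depth, so these values are a description. *Gdf15* encodes a stress-induced cytokine, *Fbn1* fibrillin of the extracellular matrix and *Loxl1* an enzyme that crosslinks elastin.

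The INK4 genes, which encode inhibitors of the kinases that start the cell cycle, were near the lower end of what these libraries resolve. *Cdkn2a* (ENSMUSG00000044303, chr4:89192708-89212890, minus strand) had 6 to 29 counts in Ctrl hearts and 12 to 58 counts in hMut hearts. That is 0.190 to 0.782 CPM in Ctrl (median 0.499) and 0.330 to 1.37 CPM in hMut (median 0.568), with 7 of 9 hMut hearts inside the Ctrl range. Its log2 fold change was 0.48 with an interval from −0.16 to 1.12 (SE 0.31, adjusted p = 0.320, edgeR), so neither no change nor a doubling lies outside the interval. Counts per gene do not separate the p16Ink4a transcript from the p19Arf transcript, which use different first exons.

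*Cdkn2b* (ENSMUSG00000073802, chr4:89224536-89229276, minus strand) encodes p15Ink4b. Its Ctrl hearts held 11 to 33 counts, or 0.348 to 0.889 CPM (median 0.611), and its hMut hearts held 26 to 74 counts, or 0.707 to 1.75 CPM (median 0.814). All 9 hMut hearts were above the Ctrl median, but only 3 were above every Ctrl heart. The log2 fold change was 0.71 (SE 0.22, 95% interval 0.25 to 1.18) and missed the threshold (adjusted p = 0.0679, edgeR). It passed with DESeq2 (adjusted p = 0.0323), with limma-voom (0.0314), with scaling on cardiomyocyte genes (0.0192), and without hMut 2 in edgeR (0.0431). In hMut 6 both INK4 genes were at their highest, 1.37 and 1.75 CPM, and there the summed lymphoid markers were also highest (81.2 CPM, against 3.04 to 44.7 CPM in Ctrl). Whether those cells contribute the counts was not tested. Without hMut 6 the log2 fold changes of *Cdkn2a* and *Cdkn2b* were 0.28 (adjusted p = 0.586) and 0.57 (adjusted p = 0.110, edgeR).

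**Figure D2:**
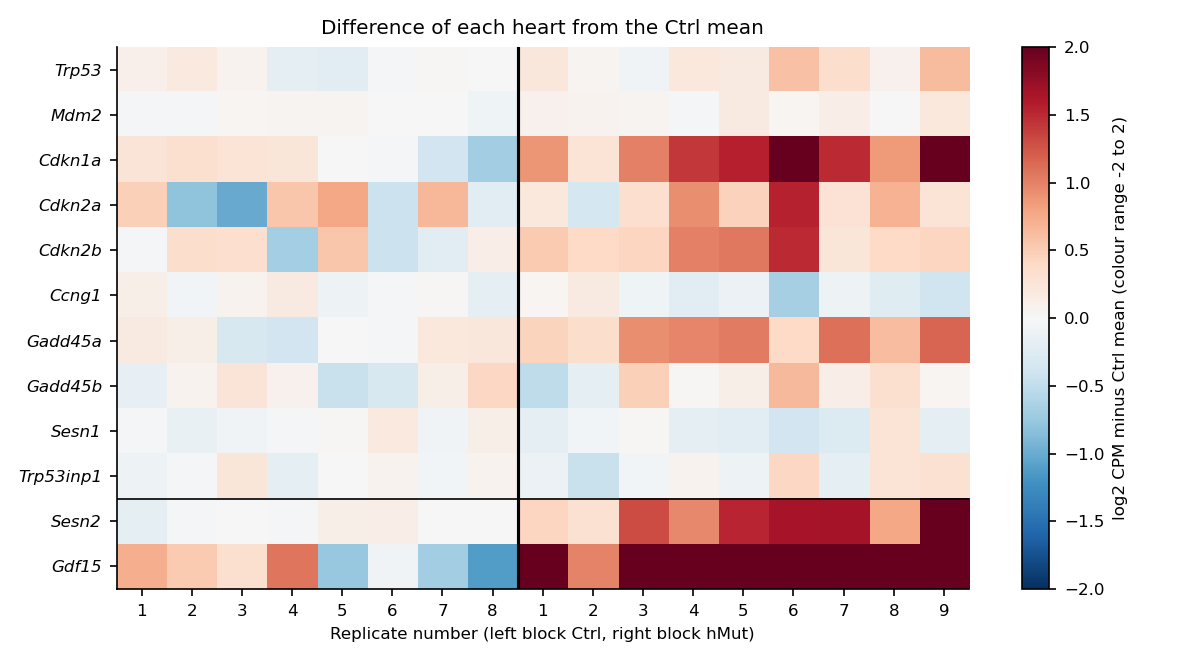
Log2 CPM of each heart minus the mean of the Ctrl hearts (colour, capped at −2 and 2) for the 10 genes and, below the thin line, *Sesn2* and *Gdf15*, in the 8 Ctrl hearts (left block) and the 9 hMut hearts (right block). *Cdkn1a* and *Gadd45a* are red across the hMut block, palest in hMut 2, while *Mdm2* stays near 0 in every heart.

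*Trp53* itself (ENSMUSG00000059552, chr11:69471185-69482699, plus strand) lay between 13.2 and 17.4 CPM in Ctrl hearts (median 15.3) and between 14.5 and 23.5 CPM in hMut hearts (median 17.5). In 5 of 9 hMut hearts it was above every Ctrl heart, with the highest values, 22.8 and 23.5 CPM, in hMut 6 and hMut 9. The log2 fold change of 0.26 (SE 0.09, 95% interval 0.07 to 0.46) missed the threshold (adjusted p = 0.0938, edgeR). Without hMut 6 and hMut 9 it was 0.15 (adjusted p = 0.251, edgeR).

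*Mdm2* (ENSMUSG00000020184, chr10:117524780-117546663, minus strand), the p53 ubiquitin ligase and a p53 target, was among the least variable of the 10 genes. It held 65.5 to 71.8 CPM in Ctrl (median 69.0) and 67.8 to 80.0 CPM in hMut (median 72.4), a coefficient of variation of 3.07% and 5.43%. Its log2 fold change was 0.08 (SE 0.04, 95% interval 0.01 to 0.16, adjusted p = 0.169, edgeR), so a rise as large as that of *Cdkn1a* lies outside its interval. To set 2 genes side by side in the same heart, the log2 ratio of their CPM was compared between groups by a two-sided exact permutation test over the 24310 arrangements of 9 and 8 hearts. Such ratios do not depend on the library scaling. The 4 ratios tested were chosen after the values were seen, with p-values adjusted over the 4. Each set a called gene over one that was not called, and the adjustment does not cover that choice. The log2 ratio of *Cdkn1a* to *Mdm2* was −0.67 ± 0.56 (SD, n = 9) in hMut and −1.88 ± 0.34 (SD, n = 8) in Ctrl, a difference of 1.21 (exact permutation p = 0.000206, adjusted p = 0.000411), and it was above every Ctrl heart in 8 of 9 hMut hearts.

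*Gadd45a* (ENSMUSG00000036390, chr6:67012080-67014441, minus strand) encodes a small protein that binds p21 and PCNA and takes part in growth arrest and DNA repair. It lay between 11.2 and 17.2 CPM in Ctrl hearts (median 15.4) and between 18.7 and 33.1 CPM in hMut hearts (median 28.1). Every hMut heart was above every Ctrl heart, a separation that 88 of the tested genes (0.543%) showed in this direction. The means were 25.8 ± 5.68 CPM (SD, n = 9) and 14.8 ± 2.33 CPM (SD, n = 8), a 1.74-fold difference and a log2 fold change of 0.80 (SE 0.13, 95% interval 0.52 to 1.07, adjusted p = 0.00156, edgeR). The order of hearts was not that of *Cdkn1a*, since hMut 6, second highest in *Cdkn1a*, had 19.4 CPM of *Gadd45a*, the second lowest value of the group. Without hMut 6 and hMut 9 the log2 fold change was 0.79 (adjusted p = 0.00112, edgeR).

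*Gadd45b* (ENSMUSG00000015312, chr10:80765907-80768038, plus strand), a paralog that responds to inflammatory and TGF-beta signals, overlapped between the groups. It lay between 5.12 and 9.31 CPM in Ctrl (median 7.37) and between 4.90 and 11.0 CPM in hMut (median 7.58). Its log2 fold change was 0.13 (SE 0.15, 95% interval −0.18 to 0.44, adjusted p = 0.587, edgeR). The log2 ratio of *Gadd45a* to *Gadd45b* was 1.72 ± 0.44 (SD, n = 9) in hMut and 1.06 ± 0.38 (SD, n = 8) in Ctrl, a difference of 0.66 (exact permutation p = 0.00621, adjusted p = 0.00621), and the ratio of 7 of 9 hMut hearts exceeded that of every control. The third member of the family, *Gadd45g*, had a log2 fold change of 0.26 (SE 0.14, adjusted p = 0.235, edgeR).

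*Ccng1* (ENSMUSG00000020326, chr11:40639379-40646138, minus strand) encodes cyclin G1, a p53 target that recruits a phosphatase to MDM2. It was the most abundant of the 10 genes, at 1105 to 1410 CPM in Ctrl (median 1247) and 786 to 1417 CPM in hMut (median 1159). The 2 lowest hMut hearts were hMut 6 at 786 CPM and hMut 9 at 950 CPM, and 4 of 9 hMut hearts were below every Ctrl heart. The log2 fold change was −0.16 (SE 0.09, 95% interval −0.35 to 0.03, adjusted p = 0.260, edgeR). Scaled on cardiomyocyte genes it was 0.06, where the median of all tested genes was 0.258. The log2 ratio of *Cdkn1a* to *Ccng1* was −4.59 ± 0.81 (SD, n = 9) in hMut and −6.05 ± 0.30 (SD, n = 8) in Ctrl, a difference of 1.46 (exact permutation p = 0.00037, adjusted p = 0.000494).

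*Sesn1* (ENSMUSG00000038332, chr10:41685931-41784420, plus strand) encodes sestrin 1, a p53-induced inhibitor of mTORC1 signalling. It lay between 105 and 133.9 CPM in Ctrl (median 114) and between 88.9 and 141.5 CPM in hMut (median 102.5). In 6 of 9 hMut hearts it was below every Ctrl heart, yet hMut 8 had the highest value of all 17 hearts. Its log2 fold change was −0.12 (SE 0.08, 95% interval −0.28 to 0.04, adjusted p = 0.300, edgeR). Scaled on cardiomyocyte genes it was 0.12, where the median of all tested genes was 0.258.

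The paralog *Sesn2*, which encodes a sestrin also induced by the transcription factor ATF4 under amino acid and mitochondrial stress, did differ. It lay between 5.07 and 6.27 CPM in Ctrl (median 5.69) and between 7.07 and 23.1 CPM in hMut (median 14.2), with every hMut heart above every Ctrl heart. The log2 fold change was 1.29 (SE 0.20, adjusted p = 0.000994, edgeR), and 1.08 without hMut 6 and hMut 9 (adjusted p = 0.00125). The log2 ratio of *Sesn2* to *Sesn1* was −3.03 ± 0.70 (SD, n = 9) in hMut and −4.34 ± 0.09 (SD, n = 8) in Ctrl, a difference of 1.31 (exact permutation p = 0.000165, adjusted p = 0.000411) with all 9 hMut hearts above every Ctrl heart. The smallest p these arrangements can give is 4.11e-05. Per kb of the gene length given in the table, *Sesn1* was still the more abundant sestrin of the pair, at 26.9 CPM per kb against 4.03 CPM per kb for *Sesn2* in hMut hearts.

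**Figure D3:**
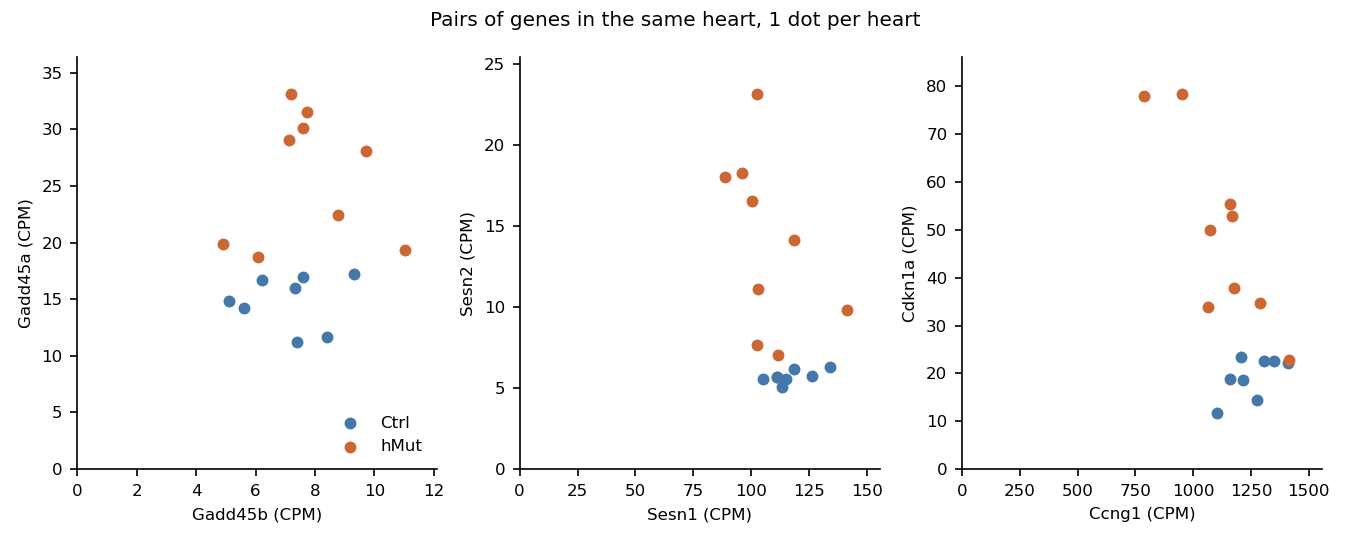
CPM of *Gadd45a* against *Gadd45b* (left), *Sesn2* against *Sesn1* (middle) and *Cdkn1a* against *Ccng1* (right), 1 dot per heart (8 Ctrl in blue, 9 hMut in orange, axes starting at 0). The groups separate along the vertical axis for *Gadd45a* and *Sesn2* and overlap along the horizontal axis in all 3 panels.

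*Trp53inp1* (ENSMUSG00000028211, chr4:11156431-11174379, plus strand) encodes a p53-induced nuclear protein with roles in autophagy and cell death. It lay between 19.5 and 26.2 CPM in Ctrl (median 21.9) and between 16.3 and 29.7 CPM in hMut (median 21.4). The hMut hearts fell on both sides of the controls, 3 above and 2 below every Ctrl heart. Its log2 fold change was 0.04 (SE 0.10, 95% interval −0.17 to 0.25, adjusted p = 0.839, edgeR), and it was −0.0186 without hMut 6.

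On the same scale, the Ctrl levels ran from 357.1 CPM per kb for *Ccng1* through 29.3 for *Sesn1*, 13.6 for *Mdm2*, 8.41 for *Gadd45a*, 5.42 for *Cdkn1a*, 4.48 for *Gadd45b*, 3.77 for *Trp53* and 3.44 for *Trp53inp1* to 0.441 for *Cdkn2b* and 0.415 for *Cdkn2a*. Neighbours in this order overlapped over Ctrl hearts from *Gadd45a* to *Trp53inp1* and for the INK4 pair, while *Ccng1*, *Sesn1* and *Mdm2* were each clear of the next gene, as was *Trp53inp1* of *Cdkn2b*. In hMut hearts *Cdkn1a* averaged 13.9 CPM per kb and *Gadd45a* 14.6 CPM per kb, beside 14.4 CPM per kb for *Mdm2*. Counted by heart, hMut 6 had 7 of the 10 genes above every Ctrl heart, and hMut 2 and hMut 3 had 3 each. The number of the 10 genes below every Ctrl heart was between 0 and 2 in each hMut heart. These counts by heart were not made for all tested genes, so they describe the hearts and not these genes.

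Among the 12 paralogs of the 10 genes, 11 were tested and only *Sesn2* was called (the median log2 fold change was −0.08, with 4 above 0 and 7 below). Over all tested genes 4.62% were called. At an unadjusted p under 0.05, edgeR gave 1 of the 11 higher and 2 lower, beside 14.5% and 11.3% of all tested genes. The other CDK inhibitors of the CIP/KIP family had log2 fold changes of −0.14 for *Cdkn1b*, which encodes p27 (SE 0.07, adjusted p = 0.191, edgeR), and −0.29 for *Cdkn1c*, which encodes p57 (SE 0.16, adjusted p = 0.234). The other INK4 genes were at 0.03 for *Cdkn2c* (SE 0.07, adjusted p = 0.837, edgeR) and −0.14 for *Cdkn2d* (SE 0.07, adjusted p = 0.184). Adjusted p-values (edgeR) were 0.524 for *Mdm4*, the MDM2 partner (log2 fold change −0.09), 0.395 for *Ccng2* (−0.08), 0.776 for *Sesn3* (0.04), 0.958 for *Trp53inp2* (−0.01) and 0.669 for the p53 relative *Trp63* (−0.11). Scaled on cardiomyocyte genes, *Cdkn1b*, *Cdkn2d*, *Mdm4*, *Ccng2*, *Trp53inp2* and *Trp63* had values above 0. All of these were below 0.258, the median of all tested genes under that scaling.

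Of 35 further p53 target genes, 6 were higher in hMut and 0 were lower, with a median log2 fold change of 0.18 (28 above 0, 7 below). At an unadjusted p under 0.05 these counts were 13 and 3 of the 35 in edgeR, beside 14.5% and 11.3% of all tested genes. The 6 made up a larger share of the 35 than the 3.48% of all tested genes called higher. No test of that difference was made. The lists were written with earlier results of these data known, so such shares are a description only. *Gdf15* had the largest change, from 1.16 to 5.50 CPM in Ctrl (median 2.85) to 5.17 to 90.2 CPM in hMut (median 29.4), a log2 fold change of 3.66 (SE 0.51, adjusted p = 0.000385, edgeR), and 8 of 9 hMut hearts were above every Ctrl heart. *Gdf15* is a target of ATF4 as well as of p53. *Phlda3*, which restrains AKT signalling, rose by 0.65 (SE 0.14, adjusted p = 0.0101, edgeR), and *Bbc3*, which encodes the cell death protein PUMA, by 0.68 (SE 0.14, adjusted p = 0.0109).

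The remaining 3 called targets were closer to the threshold. *Bid*, a member of the BCL2 family that promotes cell death, had a log2 fold change of 0.92 (SE 0.23, adjusted p = 0.0310, edgeR), *Aen*, a nuclease of apoptosis, 0.22 (SE 0.06, adjusted p = 0.0332), and *Zmat3*, an RNA-binding regulator of splicing, 0.31 (SE 0.09, adjusted p = 0.0499). The number of the 35 called in edgeR fell to 3 without Ctrl 5, 6 or 7, without hMut 5 or 9, and without hMut 6 and 9 together, and rose to 11 without hMut 1 and 12 without hMut 2, of which 2 and 1 were lower in hMut, with 1182 and 1792 of all genes then called. DESeq2 called 10 and limma-voom 12, 2 of them lower. *Bid* lost its call without Ctrl 2, 5, 6, 7 or 8 or hMut 5 or 9 (adjusted p from 0.0531 to 0.0660, edgeR).

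*Aen* lost its call without Ctrl 1, 5, 6, 7 or 8 or hMut 3, 5, 7 or 9 (adjusted p from 0.0543 to 0.0706, edgeR), and *Zmat3* kept it in edgeR without Ctrl 4 or hMut 1, 2, 4 or 8 and lost it without any other single heart (0.0577 to 0.102). *Zmat3* also lost its call with RLE factors (0.0505), upper-quartile factors (0.0566), mitochondrially encoded genes left out (0.0504), no filter on low counts (0.0747) and sex as a covariate (0.0733), and *Aen* with no filter on low counts (0.0538). *Cdkn1a*, *Gadd45a*, *Sesn2*, *Gdf15*, *Phlda3* and *Bbc3* passed the threshold in all 28 alternatives, with adjusted p-values up to 0.0218, 0.0306, 0.00596, 0.0180, 0.0255 and 0.0438.

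**Figure D4:**
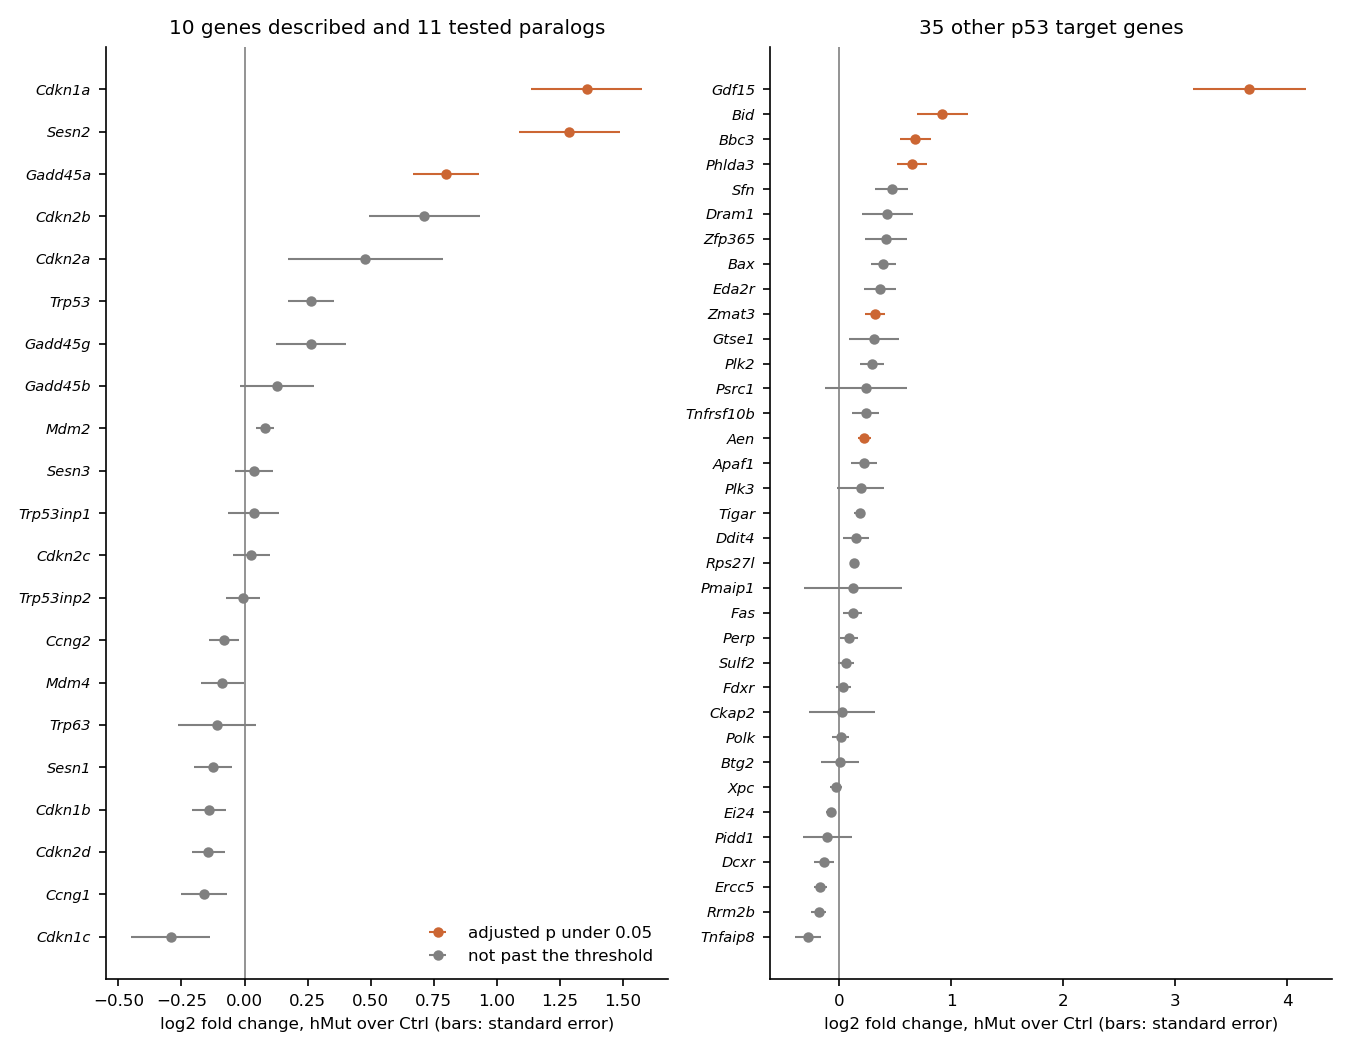
Log2 fold change of hMut over Ctrl (x axis, bars are standard errors, edgeR, n = 9 and 8) for the 10 genes with their 11 tested paralogs (left) and for 35 other p53 target genes (right, on a wider axis). Orange points passed an adjusted p of 0.05. *Cdkn1a*, *Sesn2* and *Gadd45a* passed on the left, and 6 genes led by *Gdf15* passed on the right.

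Genes that act on p53 or with it in growth arrest were examined as separate lists. Of 13 kinases and other regulators of p53, *Rchy1*, which encodes a p53 ubiquitin ligase, was called, with a log2 fold change of 0.15 (SE 0.04, adjusted p = 0.0476, edgeR), and the median of the list was −0.02. At an unadjusted p under 0.05, edgeR gave 2 of the 13 higher and 0 lower, beside 14.5% and 11.3% of all tested genes. At an adjusted p of 0.05, edgeR called 3.48% of all tested genes higher. DESeq2 called 1 of the 13 higher and limma-voom 2, beside 6.21% and 7.26% of all genes. The *Rchy1* call was kept in edgeR without Ctrl 2 or hMut 1, 2, 4 or 8 and lost without any other single heart (adjusted p from 0.0591 to 0.0904). It was also lost with RLE factors (0.0511), upper-quartile factors (0.0777), mitochondrially encoded genes left out (0.0532), no filter on low counts (0.121) and sex as a covariate (0.0697). Of 20 cyclins, CDKs and members of the RB and E2F families, none was called in either direction by edgeR (median 0.05). At an unadjusted p under 0.05, 3 of the 20 were higher and 1 lower, shares near or below those of all tested genes (14.5% and 11.3%), and DESeq2 called 1 gene higher and limma-voom 2 (6.21% and 7.26% over all genes). The 2 with the smallest adjusted p were *E2f4*, a repressor of cell cycle genes, at 0.19 (SE 0.05, adjusted p = 0.0532, edgeR), and its partner *Rbl2* at −0.17 (SE 0.06, adjusted p = 0.0917). *E2f4* passed without Ctrl 4 (0.0454) or hMut 1, 2 or 8 (0.0378, 0.0144 and 0.0420).

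Of 28 tested genes of the senescence-associated secretory list, 23 had a log2 fold change above 0, with a median of 0.35. Over all 16195 tested genes, 8174 were above 0. At an unadjusted p under 0.05, edgeR gave 13 of the 28 higher and 1 lower, beside 14.5% and 11.3% of all tested genes. By that rule DESeq2 gave 10 genes of the list higher and 1 lower, beside 2357 and 1932 of the 16265 genes it adjusted. Limma-voom gave 8 higher and 3 lower, beside 2453 and 2359 of 16195 genes. Only *Tgfb2*, a ligand of the TGF-beta family, was called by edgeR, at 0.92 (SE 0.23, adjusted p = 0.0303), where 3.48% of all tested genes were called higher. DESeq2 called 3 genes of this list higher and limma-voom 4, beside 6.21% and 7.26% of all genes. *Tgfb2* lost its edgeR call without Ctrl 1, 5, 6 or 7 or hMut 5, 7 or 9 (adjusted p from 0.0517 to 0.0584), and with sex as a covariate (0.0537). The summed level of this list was 1418 CPM in hMut 6 and 1503 CPM in hMut 9, against 907 to 1039 CPM in Ctrl hearts, and these are the hearts with the highest fibroblast and myeloid sums. The part of those cells in the list was not tested. Of 8 tested genes that mark senescent nuclei or lysosomes, none was called by edgeR, DESeq2 or limma-voom (median −0.02). At an unadjusted p under 0.05, edgeR gave 0 of the 8 higher and 1 lower, beside 14.5% and 11.3% of all tested genes. The 2 with the smallest adjusted p were *Hmgb1*, a chromatin protein that senescent cells release, at −0.10 (SE 0.05, adjusted p = 0.164, edgeR), and *Cbx7*, a Polycomb repressor of *Cdkn2a*, at −0.17 (SE 0.09, adjusted p = 0.268).

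Overlapping genes could share reads with the genes above, since the strand setting of the counting is not given in the sources used here. The genes overlapping *Trp53*, *Cdkn1a*, *Cdkn2b*, *Gadd45a* and *Sesn1* had mean counts of 15.9, 5.35, 5.71, 12.9 and 0.412 per library. For *Cdkn2b*, whose hearts held 11 to 74 counts, the opposite-strand gene *Gm12610* spans the whole gene, so its value is the least certain in this respect.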

How the data were processed

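Hearts were assigned to hMut (n = 9) or Ctrl (n = 8) from the depositors' labels, with 1 library per heart, so p-values measure the spread between hearts. Per the study's methods, poly(A) libraries were sequenced on a NovaSeq X Plus, filtered with fastp, aligned to GRCm39 with HISAT2 (2.2.1) and counted with featureCounts (2.0.6). The deposited values are the authors' counts of reads per gene, not normalized. Total counts were between 32915159 and 46486964 per library.

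Genes kept by filterByExpr were tested with edgeR's quasi-likelihood test (edgeR 4.0.16, R 4.3.3) after TMM normalization, with condition as the only term and Benjamini-Hochberg adjustment over 16195 genes. The methods name DESeq2 (1.42.0), which was run as an alternative. A standard error is the size of a log2 fold change over the root of its F value, and 95% intervals use the degrees of freedom of the fit. CPM values use TMM-scaled library sizes. The test was tried on simulated counts before use. Site searches and permutation tests used Python 3.11.15, numpy 2.4.6, scipy 1.17.1 and pandas 2.3.3.

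Members and lists were chosen with earlier results of these data known. The lists were written by hand from general knowledge. Named genes were the 10 members, their tested paralogs, up to 6 called genes of each list by adjusted p (the 2 smallest where none was called), *Polg*, and the 5 genes most correlated with *Cdkn1a* within groups. Cell markers are named only as lists or where their level was checked. Alternatives were DESeq2, limma-voom with quality weights (limma 3.58.1), RLE and upper-quartile factors, scaling on cardiomyocyte genes, mitochondrially encoded genes left out, no filter, at least 1 CPM in 8 libraries, sex (read from the counts, which assigned 5 hearts to females), a replicate block, and hearts left out.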

Additional observations from a re-analysis of the deposited data

Results flagged for a closer look

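Among 76 groups of values (38 named genes in each condition), 3 held a heart whose gap to its nearest neighbour passed Dixon's 95% limit on the log2 CPM scale, and chance alone flags about 5% of groups. None was a value of the 10 genes. *Trp53inp2* was at 581.6 CPM in hMut 6, below the other hMut hearts at 696.1 to 800.1 CPM. *Cdkn1c* was at 4.41 CPM in hMut 6, below the other hMut hearts at 8.83 to 12.8 CPM. *Cbx7* was at 23.3 CPM in Ctrl 4, below the other Ctrl hearts at 29.5 to 36.4 CPM. On the CPM scale 4 values passed, of which 2 were shared with the log2 scale.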

How the results depend on the processing

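Of the 10 genes, 2 were called in the reported fit, 3 with DESeq2 and with limma-voom, 5 with scaling on cardiomyocyte genes, and 2 to 3 with single hearts left out, and none was called lower in any setting. The number of the 35 other p53 targets called was 6 as reported, 10 with DESeq2, 12 with limma-voom, 19 with cardiomyocyte scaling, 3 with the replicate block, 3 without hMut 6 and 9 together, and 3 to 12 with single hearts left out. The number of all genes called was 749 as reported, 1517 with DESeq2, 2081 with limma-voom (56.5% higher), 5930 with cardiomyocyte scaling, 463 with no filter on low counts (85.3% higher), 195 with the replicate block (86.7% higher), 431 without hMut 6 and 9, and 395 to 1792 with single hearts left out (lowest without hMut 5, highest without hMut 2). The 4 ratio differences kept an exact permutation p under 0.05 in all 18 alternatives, which only left out hearts. The ratios were chosen after the values were seen, so this adds no independent test.

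Values near 0 changed sign. With limma-voom *Trp53inp1* was −0.0401, *Trp53inp2* 0.0327 and *Cdkn2c* −0.0051. With cardiomyocyte scaling, under which the median of all tested genes was 0.258, *Ccng1* was 0.0629, *Sesn1* 0.12, *Trp53inp2* 0.23, *Cdkn1b* 0.10, *Mdm4* 0.18, *Ccng2* 0.17, *Cdkn2d* 0.11, *Trp63* 0.16, *Rbl2* 0.0682, *Hmgb1* 0.14 and *Cbx7* 0.0642. With sex as a covariate *Trp53inp2* was 0.0127. With the replicate block *Trp53inp1* was −0.0165 and *Trp53inp2* 0.0043. Without hMut 6 and 9 they were −0.0705 and 0.0526. With single hearts left out *Trp53inp1* ran from −0.0186 to 0.0865, *Trp53inp2* from −0.0293 to 0.0329 and *Cdkn2c* from −0.0063 to 0.058. The cause of these shifts was not tested.

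Replicate numbers were tried as a block because both groups carry them. Over the 8 pairs the correlation of deviations ran from −0.225 to 0.339, 1 pair was over 0.1 and 1 of 8 hearts correlated best with its own number, so the numbers name hearts and do not pair them. Under the block the adjusted p was 0.0218 for *Cdkn1a* and 0.0306 for *Gadd45a*, and *Bid*, *Aen*, *Zmat3*, *Rchy1* and *Tgfb2* lost their calls (0.162, 0.132, 0.138, 0.158 and 0.126). *Cdkn2a* and *Cdkn2b* have no value with the filter of at least 1 CPM in 8 libraries, which leaves them out. At 6 to 74 counts a heart, these 2 genes limit what can be said of INK4 transcripts.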
